A study of Mus musculus with 12 samples.

Results

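Adipocytes are the fat-storing cells of adipose tissue, and 10 of their marker genes were examined in mouse tumors: Adipoq, Plin1, Cidec, Cidea, Fabp4, Lep, Retn, Cfd, Lpl and Pparg. Members were matched by their symbol in the array's probe table, and 8 of the 10 had a probe set with a single symbol, among 18193 genes with such a probe set. Plin1 and Cfd had none and are not analysed here. Where a gene had several probe sets, the one with the highest mean log2 intensity was used.

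The data are from 12 whole tumors of LLC (Lewis lung carcinoma) cells grown subcutaneously in the right flank of C57BL/6 females 6 to 8 weeks old, 1 array per tumor and 3 tumors per group. The 1D11_radiation group was given the antibody 1D11, which neutralizes TGF-beta, together with radiation. The 1D11 group was given 1D11 alone, the radiation group the antibody 13C4 with radiation, and the control group 13C4 alone. As background, 13C4 is the isotype control of 1D11. The 4 groups thus share the tumor line, the host strain and an injected antibody. Treatment began at a tumor volume of 60 to 80 mm3, and tumors were taken on day 19 after injection. The labels disagree on the dose, with 5 × 6 Gy in one field and 2 Gy in another. The labels do not say how much neighbouring skin, fat or muscle was cut out with a tumor.

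As background, white adipocytes store triglyceride in a single large droplet, release fatty acids from it and secrete hormones. Pparg encodes the nuclear receptor that drives adipocyte differentiation and many of the other members' genes. Lipid handling is shared by Lpl, which cuts circulating triglyceride, Fabp4, which carries fatty acids inside the cell, and Cidec and Cidea, proteins of the droplet surface that promote droplet growth. Adipoq (adiponectin) and Lep (leptin) are adipocyte hormones, and Retn (resistin) is one in the mouse. Fabp4 is also made by capillary endothelium and macrophages, and Lpl by muscle and macrophages, so neither is restricted to fat.

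Upstream sequences are shown for Adipoq, which varied most between tumors, for Cidec, and for Lep, which varied least. Cidec had the highest correlation with Adipoq of the measured members over the 12 tumors (r = 0.691). That correlation did not pass adjustment (permutation test, adjusted p = 0.0602). RefSeq sequences on GRCm38.p6 were at hand for 7 of the 10 members, 5 of them measured. Each run is the 250 bases before the annotated start, 5′ to 3′ on the gene's strand. Capitals mark any match, on either strand, to 4 words. These were the promoter box CCAAT, the TATA-box word TATAA, the C/EBP-like word TTGCNNAA and the nuclear receptor half-site AGGTCA.
Adipoq, chr16:23146286-23146535, plus strand: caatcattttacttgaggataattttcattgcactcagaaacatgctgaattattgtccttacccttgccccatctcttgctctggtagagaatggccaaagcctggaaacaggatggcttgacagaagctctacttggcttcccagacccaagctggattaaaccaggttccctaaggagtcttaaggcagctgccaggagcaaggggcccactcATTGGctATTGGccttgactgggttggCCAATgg
Cidec, chr6:113435761-113436010, minus strand: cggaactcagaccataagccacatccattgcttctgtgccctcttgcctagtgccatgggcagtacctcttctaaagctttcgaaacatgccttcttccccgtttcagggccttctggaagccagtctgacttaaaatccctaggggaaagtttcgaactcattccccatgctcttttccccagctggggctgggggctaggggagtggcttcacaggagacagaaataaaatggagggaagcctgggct
Lep, chr6:29059971-29060220, plus strand: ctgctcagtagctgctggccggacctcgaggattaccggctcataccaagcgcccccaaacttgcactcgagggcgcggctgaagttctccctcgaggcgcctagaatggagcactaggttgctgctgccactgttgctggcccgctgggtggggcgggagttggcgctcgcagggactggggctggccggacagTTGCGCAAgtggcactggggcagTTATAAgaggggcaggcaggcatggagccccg

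The Adipoq window held 3 matches to CCAAT, which 33.8% of the 32851 listed start sites had at least once. The Lep window held 1 match to TTGCNNAA (9.56% of start sites) and 2 overlapping matches to TATAA (22.8%). None of the 3 windows held AGGTCA (14.0%), and the Cidec window held none of the 4 words. Of the 2 starts listed for Cidec, the outer one is shown.

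Intensities are given on the log2 scale, where 1 unit is a doubling. Genes whose mean over the 12 arrays lay under a log2 intensity of 5.37, the lowest 30 percent, were not tested, which left 12735 genes. Adipoq, Fabp4, Retn and Lpl were past that level. Cidec, Cidea, Lep and Pparg lay under it, so their values are given with p-values from a fit with no filter. Groups were compared with limma over all 12 arrays (log2 change ± SE, n = 3 tumors per group, two-sided), and a gene was called at an adjusted p (Benjamini-Hochberg over all genes tested) under 0.05. In whole-tumor RNA, fewer adipocytes and less of a transcript per adipocyte cannot be told apart.

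Adipoq (chromosome 16, 23146536 to 23157968, GRCm38.p6; probe set 1422651_at) varied most among the members. Its log2 intensity was 5.21, 6.19 and 5.40 in 1D11_radiation tumors, 8.24, 6.31 and 7.53 in 1D11 tumors, 5.75, 7.10 and 6.48 in radiation tumors, and 5.69, 4.87 and 6.19 in control tumors. All 1D11 tumors thus lay above all 1D11_radiation and all control tumors, and the radiation tumors overlapped each other group. From the highest to the lowest tumor the difference was 10.3-fold, a range larger than that of 99.7% of genes. Group means ± SD were 5.60 ± 0.52 for 1D11_radiation, 7.36 ± 0.98 for 1D11, 6.44 ± 0.67 for radiation and 5.58 ± 0.66 for control. In the order of means, 1D11 was followed by radiation, 1D11_radiation and control, and each group overlapped its neighbour in that order.

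Fabp4 (chromosome 3, 10204342 to 10208616; 1417023_a_at), the intracellular fatty acid carrier, had log2 intensities of 8.10, 9.22 and 8.32 in 1D11_radiation tumors, 9.64, 9.07 and 9.63 in 1D11 tumors, 8.31, 9.18 and 8.83 in radiation tumors, and 9.39, 8.84 and 9.63 in control tumors. Each irradiated group had a lower mean than its unirradiated counterpart and overlapped it. Its mean ± SD was 8.55 ± 0.59 in 1D11_radiation, 9.45 ± 0.33 in 1D11, 8.77 ± 0.43 in radiation and 9.29 ± 0.41 in control tumors. A second bright probe set of Fabp4 followed the first at r = 0.989 over the 12 arrays. The other Fabp4 probe sets, with mean log2 intensities of 4.28 and 4.97, did not follow it (r = 0.253 and -0.234).

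Lpl (chromosome 8, 68880555 to 68906932; 1415904_at), the lipase that frees fatty acids from lipoproteins, had 7.13, 8.52 and 7.75 in 1D11_radiation tumors, 8.00, 8.13 and 8.79 in 1D11 tumors, 8.16, 8.59 and 9.09 in radiation tumors, and 10.06, 7.19 and 7.41 in control tumors. Control replicate 1 held the highest value of all 12, and the other control tumors were among the lowest. The control SD was 1.59, against 0.70 in 1D11_radiation, 0.43 in 1D11 and 0.47 in radiation tumors. The second Lpl probe set followed the first at r = 0.961.

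Retn (chromosome 8, 3655770 to 3659818; 1449182_at), the mouse adipocyte hormone resistin, spanned 0.59 log2 units over all tumors. It had 6.40, 6.19 and 6.38 in 1D11_radiation tumors, 6.78, 6.35 and 6.60 in 1D11 tumors, 6.43, 6.64 and 6.59 in radiation tumors, and 6.49, 6.57 and 6.75 in control tumors. All 1D11_radiation tumors lay below all radiation and all control tumors.

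Of the members under the filter level, Cidea (1417956_at), a droplet protein prominent in brown fat, had 5.20, 5.01 and 5.03 in 1D11_radiation tumors, 5.46, 5.27 and 5.70 in 1D11 tumors, 4.85, 4.98 and 5.17 in radiation tumors, and 5.35, 5.11 and 5.37 in control tumors. All 1D11_radiation tumors lay below all 1D11 tumors. Cidec (1452260_at), its relative in white fat, lay between 3.93 and 4.65, with both ends in the radiation group. Pparg (1420715_a_at), the adipogenic receptor, had 5.26, 5.23 and 5.22 in 1D11 tumors and 4.95, 5.12 and 5.11 in control tumors. These groups did not overlap, and the irradiated tumors spanned 5.08 to 5.62. Lep (1422582_at), the satiety hormone of white fat, lay between 3.97 and 4.30, a range exceeded by most genes.

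**Figure D1:**
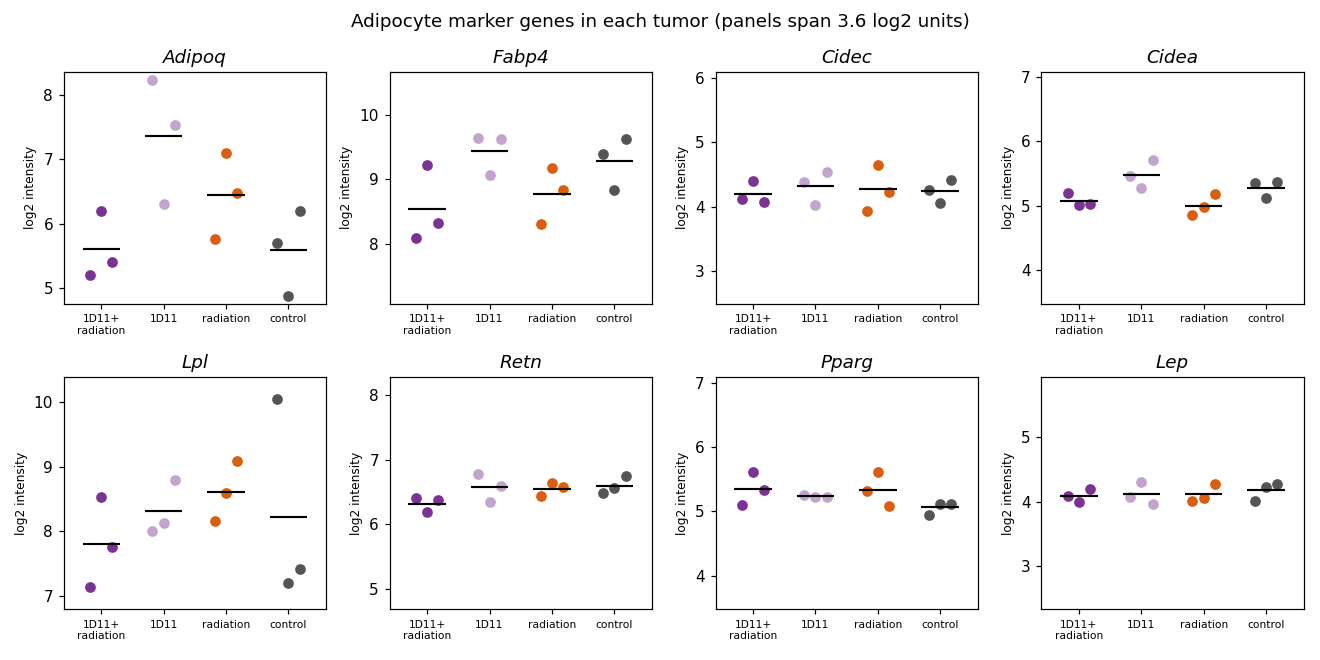
Log2 intensity (y axis) of the 8 measured adipocyte genes in each of 12 tumors, by group (x axis), with 1 point per tumor and a bar at the group mean. Every panel spans 3.6 log2 units. Adipoq has its highest group mean in the 1D11 tumors, which overlap the radiation tumors. Lpl has 1 high control tumor, and Lep varies least.

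The design crosses an antibody with radiation, and the first question was what radiation does when TGF-beta is neutralized. In 1D11_radiation tumors Adipoq averaged 5.60, against 7.36 in 1D11 tumors, a log2 change of -1.76 ± 0.51 (0.296-fold, unadjusted p = 0.0052, adjusted p = 0.142, limma). Fabp4 had -0.90 ± 0.32 (unadjusted p = 0.0157, adjusted p = 0.21), Retn -0.26 ± 0.11 (unadjusted p = 0.0465, adjusted p = 0.315) and Lpl -0.51 ± 0.64 (adjusted p = 0.774). In the fit with no filter, Cidea had -0.40 ± 0.12 (adjusted p = 0.197), Cidec -0.13 ± 0.18, Pparg 0.11 ± 0.14 and Lep -0.03 ± 0.11. Of the 4 tested members 0 were called by limma, where 0.0785% of all genes were, and 3 had an unadjusted p under 0.05, as did 15.5% of genes. Of the 8 measured members 7 were lower and 2, Adipoq and Cidea, had groups that did not overlap, as did 21.3% of all genes. The median over the 8 was -0.33, beside -0.02 over all measured genes. With array weights Adipoq (-1.73, adjusted p = 0.0336) and Fabp4 (-1.02, adjusted p = 0.0332) were called. Fabp4 had -0.39 with the mean of its probe sets (adjusted p = 0.33) and -0.58 with the keratinocyte score as a covariate (adjusted p = 0.685). That mean includes the dim Fabp4 probe sets, which had -0.02 and 0.14, whereas the second bright one alone had -0.79. Over the 23 alternatives run for Adipoq the change ran from -2.28 to -1.09, with adjusted p from 0.0336 to 0.599.

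The second question was what 1D11 does without radiation. Adipoq averaged 7.36 in 1D11 tumors and 5.58 in control tumors, a log2 change of 1.77 ± 0.51 (3.42-fold, unadjusted p = 0.00493, adjusted p = 0.196, limma). Fabp4 (0.16 ± 0.32), Lpl (0.09 ± 0.64) and Retn (-0.02 ± 0.11) had changes no larger than their errors, at adjusted p from 0.845 to 0.961. Cidea had 0.21 ± 0.12, Pparg 0.17 ± 0.14 (adjusted p = 0.615 with no filter), Cidec 0.08 ± 0.18 and Lep -0.06 ± 0.11. Of 4 tested members 0 were called (0.0157% of all genes), and 1 had an unadjusted p under 0.05 (14.1%). Adipoq and Pparg were the 2 of 8 whose groups did not overlap, against 18.4% of all genes. No alternative brought a member past the threshold, and adjusted p for Adipoq lay between 0.183 and 0.695.

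The third question was what radiation does under the control antibody. Adipoq averaged 6.44 in radiation tumors and 5.58 in control tumors (0.86 ± 0.51, adjusted p = 0.397, limma). Fabp4 had -0.51 ± 0.32 (adjusted p = 0.417), Lpl 0.39 ± 0.64, Retn -0.05 ± 0.11, Cidea -0.27 ± 0.12 (adjusted p = 0.312 with no filter), Pparg 0.28 ± 0.14, Cidec 0.03 ± 0.18 and Lep -0.06 ± 0.11. No groups were free of overlap in any of the 8, where 18.3% of genes were. Of 4 tested members 0 were called and 0 had an unadjusted p under 0.05, beside 2.39% and 18.7% of all genes. Without control replicate 1 the Lpl change was 1.31, and without control replicate 2 it was -0.12.

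Radiation thus came with opposite signs of the Adipoq difference under the 2 antibodies, and the difference between them was tested as an interaction. It was -2.62 ± 0.72 on the log2 scale (unadjusted p = 0.00375, adjusted p = 0.395, limma), the change under 1D11 minus the change under 13C4. It lay between -3.14 and -1.96 over the 22 alternatives, with adjusted p from 0.1 to 0.882. The other tested members had -0.90 ± 0.91 (Lpl), -0.39 ± 0.45 (Fabp4) and -0.21 ± 0.16 (Retn). Of 4 tested members 0 were called in the interaction, as were 0% of all genes, and 1 had an unadjusted p under 0.05 (7.48%).

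Between irradiated groups, 1D11_radiation minus radiation, Adipoq had -0.85 ± 0.51, Lpl -0.81 ± 0.64, Retn -0.23 ± 0.11 and Fabp4 -0.23 ± 0.32, at adjusted p from 0.84 to 0.914 (limma). Retn was the 1 member of 8 whose groups did not overlap, as for 12.4% of genes. None of the 4 was called, as was no gene in that comparison (0%), and 0 had an unadjusted p under 0.05 (5.4% of genes). For the combined treatment, 1D11_radiation minus control, Adipoq had 0.01 ± 0.51, Fabp4 -0.74 ± 0.32 (unadjusted p = 0.0388, adjusted p = 0.208), Retn -0.28 ± 0.11 (unadjusted p = 0.0325, adjusted p = 0.192) and Lpl -0.42 ± 0.64. Retn was again the 1 member whose groups did not overlap (24.2% of genes). Of 4 tested members 0 were called (2.35% of genes) and 2 had an unadjusted p under 0.05 (21.2%). These comparisons share tumors with those above.

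Over both antibodies, 6 irradiated tumors were set against 6 unirradiated ones. Fabp4 had a lowest, median and highest log2 intensity of 8.10, 8.58 and 9.22 in irradiated tumors and of 8.84, 9.51 and 9.64 in unirradiated tumors. The groups overlapped, as they did for all 8 members (groups of 3.16% of genes did not). Its change was -0.71 ± 0.22 (unadjusted p = 0.00894, adjusted p = 0.0791, limma). Cidea had 4.85, 5.02 and 5.20 in irradiated tumors and 5.11, 5.36 and 5.70 in unirradiated tumors, a change of -0.34 ± 0.09 (adjusted p = 0.0508 with no filter). Adipoq (-0.45 ± 0.36), Retn (-0.15 ± 0.08) and Lpl (-0.06 ± 0.45) had adjusted p from 0.286 to 0.961. Of 4 tested members 0 were called (7.26% of genes) and 1 had an unadjusted p under 0.05 (24.3%). Fabp4 was called with array weights (-0.73, adjusted p = 0.0345), with the skeletal muscle score as a covariate (-0.76, adjusted p = 0.0474) and without 1D11_radiation replicate 2 (-0.88, adjusted p = 0.0293). It was not called in the other alternatives, and the Fabp4 change was -0.34 with the mean of its 4 probe sets (adjusted p = 0.133) and -0.55 with the keratinocyte score as a covariate (adjusted p = 0.296). That mean includes the dim probe sets, which had 0.01 and 0.02, whereas the second bright Fabp4 probe set alone had -0.67. Cidea was called where genes were the mean of their probe sets. The endothelial list, whose cells also make Fabp4, was lower in the same comparison in all of its 10 tested members, of which 4 fell, at a median of -0.40. The fibroblast list was also lower in all of its 10 tested members (2 fell, median -0.25). Of 10 tested macrophage genes 7 were higher and 3 lower (1 rose, median 0.11). Over the 12 arrays Fabp4 had r = 0.499 with the endothelial score (permutation p = 0.0998, adjusted p = 0.191) and rho = 0.587 (permutation p = 0.0486, adjusted p = 0.143), a pair chosen after the values had been seen, and r = 0.376 without radiation and 1D11_radiation replicates 1. With group means removed that r was 0.195. Macrophage scores were -0.21 to 0.18 in 1D11_radiation, 0.01 to 0.30 in 1D11, 0.09 to 0.21 in radiation and -0.41 to -0.08 in control tumors. The part of endothelial cells, fibroblasts or macrophages in the Fabp4 difference was not tested. For 1D11 against 13C4 over both radiation states, the 4 tested members lay between -0.36 ± 0.45 (Lpl) and 0.46 ± 0.36 (Adipoq), with 0 called (0.00785% of genes) and 0 at an unadjusted p under 0.05 (12.5%).

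**Figure D2:**
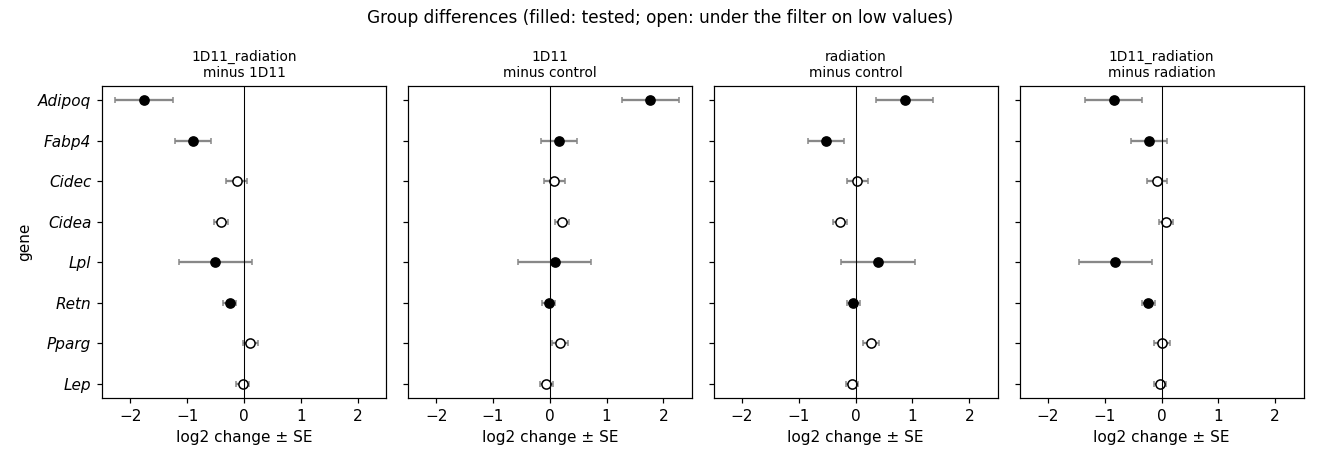
Log2 change ± SE (x axis) of each adipocyte gene (y axis) in 4 comparisons of 3 tumors against 3, the first-named group minus the second. Filled points are genes that were tested and open points genes under the filter level. Adipoq lies at -1.76, 1.77, 0.86 and -0.85 from left to right, and no gene was called.

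The members did not vary as a single unit across tumors. Within each of the 4 groups the tumors stood in the same order for Fabp4 as for Adipoq, and Cidec and Retn shared that order in 2 groups, Cidea, Lpl and Pparg in 1 and Lep in 0. Over the 12 arrays Adipoq correlated with Fabp4 at r = 0.683 (permutation p = 0.0154, adjusted p = 0.0602) and rho = 0.629 (permutation p = 0.0326, adjusted p = 0.12). Without 1D11 replicates 1 and 3, the tumors farthest from the median Adipoq level, r was 0.515. With Cidec r was 0.691 (permutation p = 0.0134, adjusted p = 0.0602), rho 0.566 (permutation p = 0.0598, adjusted p = 0.143), and r without those 2 tumors 0.691. None of these passed after adjustment over the 18 relations computed. After group means were removed, as a description, Adipoq had r = 0.893 with Fabp4, 0.867 with Cidec and 0.619 with Retn, and Cidec had 0.878 with Fabp4. Adipoq had 0.462 with Cidea, 0.406 with Pparg, 0.268 with Lpl and -0.346 with Lep.

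Lpl instead varied with skeletal muscle genes. Its r with the skeletal muscle score, the mean of 17 centred muscle genes such as Acta1 (skeletal actin) and Myh1 (a fast myosin), was 0.862 (permutation p = 0.00052, adjusted p = 0.00936) and rho was 0.895 (permutation p = 0.00019, adjusted p = 0.00342). Without control replicate 1 and 1D11_radiation replicate 1 r was 0.898, and with group means removed it was 0.873. The pair was chosen after the values had been seen. The score was 1.20 in control replicate 1, where Lpl was highest, and 1.96 in radiation replicate 3, where Lpl was second. With this score as a covariate the Lpl change between 1D11_radiation and 1D11 was 0.01, against -0.51 without it. Adipoq had r = 0.324 with the same score (permutation p = 0.304, adjusted p = 0.497), with rho = 0.476 (permutation p = 0.122, adjusted p = 0.199), and 0.566 without 1D11 replicates 1 and 3.

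**Figure D3:**
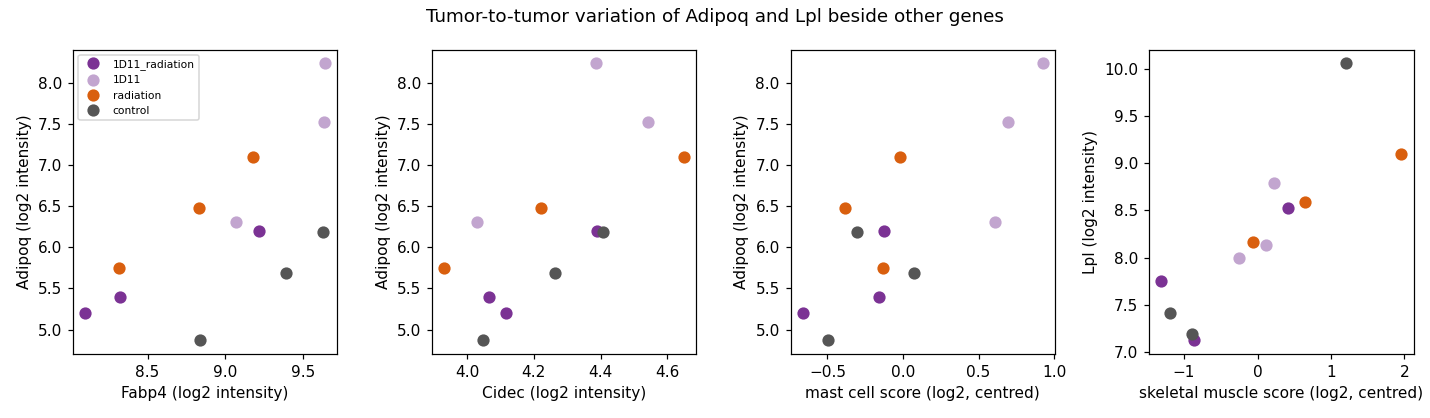
Each point is 1 of 12 tumors, coloured by group. The first 3 panels plot Adipoq log2 intensity (y axis) against Fabp4, Cidec and the mast cell score (x axes), and the last plots Lpl against the skeletal muscle score. Lpl rises with the muscle score across all groups, and the 3 1D11 tumors stand apart on the mast cell score.

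Mast cell markers were high in all 1D11 tumors, and skin markers in 1D11 replicates 1 and 3. Keratinocyte scores were 0.94 and 2.20 in 1D11 replicates 1 and 3, the same tumors that held the most Adipoq, and lay between -0.40 and -0.19 in the other 10. Krt10, a keratin of the outer epidermis, had 8.58 and 8.55 there and at most 7.24 elsewhere. Loricrin, Lor, had 7.59 and 7.57 there and at most 6.94 elsewhere. Of 10 measured keratinocyte genes 9 were higher in 1D11 than in control tumors. Of the 4 that passed the filter level 0 were called, beside 0.0157% of all genes. Mast cell scores were -0.67 to -0.13 in 1D11_radiation tumors, 0.61 to 0.92 in 1D11 tumors, -0.38 to -0.02 in radiation tumors and -0.50 to 0.07 in control tumors. The mast cell protease gene Cpa3 had 9.94 to 10.1 in 1D11 tumors and 7.74 to 9.47 in control tumors. Between these groups Cpa3 was not called (adjusted p = 0.165, limma), and 0 of 7 tested mast cell genes were. The relation of Adipoq with the mast cell score over all 12 tumors passed adjustment over the 18 relations (permutation p = 0.00266, adjusted p = 0.0239). All 1D11 tumors stand apart on the mast cell score, and 1D11 replicates 1 and 3 on the keratinocyte score. For that reason no r over all 12 is given for either score. The keratinocyte relation over all 12 did not pass adjustment (permutation p = 0.0167, adjusted p = 0.0602), and r was 0.304 without 1D11 replicates 1 and 3. In the 9 tumors outside the 1D11 group, a choice made after seeing the data, Adipoq had r = 0.485 with the mast cell score (exact permutation p = 0.186, adjusted p = 0.372 over the 2 relations) and rho = 0.483 (exact permutation p = 0.194, adjusted p = 0.312). It had r = 0.301 with the keratinocyte score (exact permutation p = 0.432, adjusted p = 0.432) and rho = 0.383 (exact permutation p = 0.312, adjusted p = 0.312). Without control replicate 2 and radiation replicate 2, these r were 0.158 and 0.763, so both depend on those tumors. With the keratinocyte score as a covariate, Adipoq had -1.09 between 1D11_radiation and 1D11 tumors and 1.16 between 1D11 and control tumors. Of the sebaceous gland genes 0 of 4 measured passed the filter level, and of the mammary genes 1 of 7, Lalba. The macrophage, skeletal muscle and mast cell lists had signs like those of Adipoq, and so had the list of lipid droplet and lipolysis genes. Of 10 tested macrophage genes 9 were lower in 1D11_radiation than in 1D11 tumors (0 called, median -0.27). There were 9 higher in 1D11 than in control tumors (0 called, median 0.32), and 9 higher in radiation than in control tumors (median 0.37). In the last comparison 3 rose, beside 2.39% of all genes called. All 10 were negative in the interaction (0 called, median -0.65). Of 17 tested muscle genes, in the same order, 16 were lower (median -0.73), 14 higher (0.25), 17 higher (1.17) and 17 negative (-1.925). None of them was called in these comparisons. Of 7 tested mast cell genes 6 were lower (median -1.586), 7 higher (1.515), 5 higher (0.20) and 6 negative (-1.958). Of them 1 fell in the first comparison, beside 0.0785% of all genes called, and 0 were called in the others. Of 14 tested lipid droplet and lipolysis genes 11 were lower (median -0.06), 11 higher (0.09), 11 higher (0.09) and 12 negative (-0.12). None of these 14 was called in these comparisons. Over the 12 tumors Adipoq had r = 0.557 with the macrophage score (permutation p = 0.0582, adjusted p = 0.175) and rho = 0.72 (permutation p = 0.0109, adjusted p = 0.0653). That r was 0.634 without 1D11 replicates 1 and 3, and 0.0875 with group means removed. The part of neighbouring skin, muscle, mast cells or macrophages in the Adipoq difference was not tested.

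The genes whose level over the 12 arrays was most like that of Adipoq, members left out, were Spryd4 (r = 0.924), Msto1 (0.904), Slco2a1, a prostaglandin transporter (0.893), and Hp, the plasma protein haptoglobin (0.875). They were followed by Lipe, the hormone-sensitive lipase of fat cells (0.832), H2-T24 (0.831), Tsen34 (0.826), Osr1 (0.818), Limd1 (0.814) and Ncdn (0.813). Hp spanned 7.56 to 10.3 log2 units, whereas Spryd4 spanned only 8.04 to 8.44. On deviations from group means the first 10 were Klhl5 (0.938), Lrig3, Rpl39, 1110059G10Rik, Gh, Spata6, Cradd, Hp (0.877), Ltv1 and Prkab1 (0.869). Hp was the gene named by both measures. These are descriptions over 12 arrays, chosen as the highest of all tested genes.

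Related genes of fat metabolism were set beside the members. Among the adipogenic regulators (9 of 15 listed were tested) 6 were lower and 3 higher in 1D11_radiation than in 1D11 tumors, at a median of -0.10 and none called. Ebf1, a factor of early adipogenesis and B cells, had -0.83 ± 0.28 and Ebf3 -0.33 ± 0.14. Of 14 tested lipid droplet and lipolysis genes 11 were lower, at a median of -0.06. Plin3, a droplet coat protein (-0.27 ± 0.08), and Mgll, the lipase of monoglycerides (-0.39 ± 0.12), had the smallest p. Of 17 tested genes of fatty acid and triglyceride synthesis 12 were higher, at a median of 0.03, with Dgat2 at 0.24 ± 0.10 and Gpd1 at 0.18 ± 0.09. Of 9 tested uptake genes 5 were lower, with Vldlr, a lipoprotein receptor, at 1.66 ± 0.33 (adjusted p = 0.063) and the fatty acid transporter Cd36 at -0.80 ± 0.24. Of 8 tested adipokines and receptors 7 were higher, with Nampt at 0.33 ± 0.10 and Apln at 0.75 ± 0.29. Of 4 tested brown fat genes 3 were higher, with Prdm16 at 0.24 ± 0.10 and Cox7a1 at -0.35 ± 0.27. None of these genes was called in that comparison (0.0785% of all genes were).

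Between 1D11 and control tumors none of the related genes was called either. The smallest p in each list belonged to Ebf1 (0.51 ± 0.28) and Srebf1 (0.13 ± 0.09), to Bscl2, the seipin of droplet formation (0.36 ± 0.13), and Fitm2 (0.26 ± 0.09), and to Gpd1 (-0.26 ± 0.09) and Me1 (0.27 ± 0.09). They were followed by Lmf1, which matures lipoprotein lipase (0.24 ± 0.06), and Vldlr (-0.91 ± 0.33), by Rbp4 (0.52 ± 0.13) and Cap1 (0.20 ± 0.10), and by Prdm16, a regulator of brown fat (-0.46 ± 0.10), and Dio2 (-0.24 ± 0.30). Their adjusted p ran from 0.127 to 0.754. Adipoq, at 1.77 ± 0.51, had a larger change but also a larger SE than any of these 12 genes. Its adjusted p of 0.196 (limma) was above that of Prdm16 (0.127) and Rbp4 (0.165).

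Between irradiated and unirradiated tumors 4 related genes were called. Rbp4, the retinol-binding protein that liver and fat secrete, rose by 0.60 ± 0.09 (adjusted p = 0.0072, limma), with a lowest, median and highest value of 10.26, 10.38 and 10.50 in irradiated tumors and 9.27, 9.80 and 10.27 in unirradiated tumors. Vldlr rose by 1.10 ± 0.23 (adjusted p = 0.0191), with 7.13, 7.60 and 8.39 in irradiated tumors and 5.85, 6.51 and 7.52 in unirradiated tumors. Both overlapped between the groups, Rbp4 by a single tumor, 1D11 replicate 2. Ebf1 fell by 0.78 on the log2 scale (SE 0.20, adjusted p = 0.0401), with 5.62, 5.89 and 6.87 in irradiated tumors and 6.40, 6.81 and 7.59 in unirradiated tumors. Mgll fell by 0.35 (SE 0.09, adjusted p = 0.0363), with 6.67, 6.77 and 7.01 in irradiated tumors and 6.91, 7.16 and 7.33 in unirradiated tumors. The 2 rises and 2 falls stood in lists where 1 of 9, 1 of 14, 0 of 17, 1 of 9, 1 of 8 and 0 of 4 tested genes passed, beside 7.26% of all genes. In the lists with no call, Dgat2 (0.17 ± 0.07), Thrsp (-0.12 ± 0.06), Cox8b (0.41 ± 0.32) and Cox7a1 (-0.16 ± 0.19) had the smallest p.

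Rbp4 was also called in 1D11_radiation against control tumors (0.84 ± 0.13, adjusted p = 0.0199) and in radiation against control tumors (0.88 ± 0.13, adjusted p = 0.0128). Its levels were 10.39, 10.26 and 10.43 in 1D11_radiation tumors, 10.50, 10.34 and 10.36 in radiation tumors and 9.27, 9.51 and 9.77 in control tumors, with no overlap. The second call ended without radiation replicate 1 (adjusted p = 0.0616) or 2 (0.053), and the first without 1D11_radiation replicate 1 (0.0568) or 3 (0.077). Both also ended in a fit on only the groups compared, at adjusted p = 0.0828 for Rbp4 in 1D11_radiation and 0.0821 in radiation against control tumors. The Rbp4 call over 6 against 6 tumors held with any 1 tumor left out, at adjusted p up to 0.0228. Ebf1 lost its call without 10 of the 12 tumors in turn (adjusted p up to 0.0948) and Mgll without 9 (up to 0.092). With the keratinocyte score as a covariate neither was called, with Ebf1 at -0.56 (adjusted p = 0.197) and Mgll at -0.25 (adjusted p = 0.185). Vldlr lost it without 1D11 replicate 2 (0.0513) or radiation replicate 1 (0.0528), and its change was 0.61 with the mean of its probe sets.

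**Figure D4:**
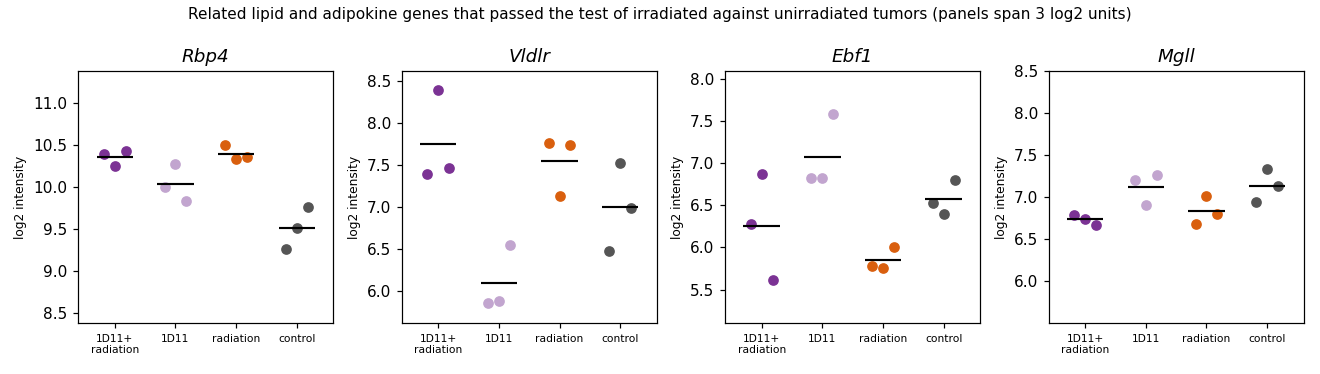
Log2 intensity (y axis) of Rbp4, Vldlr, Ebf1 and Mgll in each of 12 tumors by group (x axis), with 1 point per tumor, a bar at the group mean and 3 log2 units per panel. Rbp4 and Vldlr lie higher and Ebf1 and Mgll lower in the irradiated groups, with overlap in each gene.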

How the data were processed

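For each tumor the authors deposited 1 linear intensity for each of 45101 Affymetrix probe sets; how they corrected background and normalized is not given in the sources used here. Per the labels' protocols, 6 µg of RNA per tumor went into biotinylated cRNA. Array medians lay between 62.3 and 66.1, so the values were taken as already normalized between arrays and used as log2 intensity. No detection calls or background readings were used, and the number of arrays limits the precision. The probe table gave 1 symbol to 34945 probe sets, several to 932 and none to 9160, and 64 control probe sets were left out.

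limma 3.58.1 in R 4.3.3 fitted 1 mean per group (8 residual and 3.11 prior degrees of freedom). Correlations used 100000 permutations. A list's score is the mean of its members' centred log2 values. The fit was tested on simulated data. No 2 arrays were copies (SD of log2 differences at least 0.17). The labels do not say that tumors of a group came from separate mice, so p-values measure the spread between these samples. They give no batch.

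Named were all 10 members, called genes of the related lists or the 2 with the smallest p, and the 10 genes most like Adipoq. Of other cell types, the 2 brightest muscle and keratinocyte genes and the brightest mast cell and mammary gene were named. No macrophage or endothelial gene was named. The members and lists were chosen with earlier results of these data known. Alternatives were other probe set rules, filters, normalization and pseudocount, array weights, fewer groups, a replicate block, 2 covariates, and arrays left out.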

Additional observations from a re-analysis of the deposited data

How the results depend on the processing

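No adipocyte gene was called by limma in any comparison as reported, and most alternatives gave the same count. With array weights 2 were called between 1D11_radiation and 1D11 tumors (Adipoq and Fabp4). Between irradiated and unirradiated tumors 1 was called with the mean of probe sets (Cidea), 1 with array weights and 1 with the skeletal muscle score as a covariate (Fabp4 in both), and 0 to 1 with 1 tumor left out. With replicate number as a block no member was called: Adipoq had -1.76 between 1D11_radiation and 1D11 (adjusted p = 0.212, limma) and Fabp4 -0.71 between irradiated and unirradiated tumors (adjusted p = 0.116). The labels do not say whether the numbers pair tumors across groups. Of 18 same-numbered pairs 3 had a correlation of deviations over 0.1 (range -0.308 to 0.272). Pairs with different numbers were not compared, so this does not settle whether the numbers pair tumors. The irradiation calls of Ebf1 and Mgll ended with the block (adjusted p = 0.0737 and 0.0636) and with the keratinocyte score, that of Ebf1 also without control replicate 1 and radiation replicate 3 together (0.0588), and that of Mgll with the mean of probe sets (0.0592).

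Signs turned only for changes that were not called, mostly of Lpl, and the cause was not tested. With the skeletal muscle score as a covariate, Lpl had 0.0137 (1D11_radiation minus 1D11), -0.573 (radiation minus control), -0.188 (1D11 minus control), 0.399 (1D11_radiation minus radiation), 0.105 (1D11 minus 13C4) and 0.587 (interaction). With it Retn had 0.0193 (radiation minus control) and Fabp4 0.0539 (1D11_radiation minus radiation) and 0.0751 (1D11 minus 13C4). With the keratinocyte score, Fabp4 had -0.134 and Lpl -0.169 (1D11 minus control), and Lpl 0.0835 over irradiation. Lpl had -0.0268 with the mean of probe sets and -0.14 with its second probe set, an alternative chosen after seeing the data (1D11 minus control). Array weights gave Adipoq -0.265 (1D11_radiation minus control) and Lpl 0.101 over irradiation. Without control replicate 1 and radiation replicate 3 together, Lpl had 0.497 (1D11_radiation minus control), 0.282 (irradiation) and 0.215 (1D11 minus 13C4), and Fabp4 0.00674 (1D11 minus 13C4). Quantile normalization gave r = -0.00965 for Adipoq with the endothelial score.

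With 1 tumor left out, Lpl ran from -0.121 to 1.31 (radiation minus control), -0.428 to 1.0 (1D11 minus control), -0.934 to 0.497 (1D11_radiation minus control), -0.313 to 0.402 (irradiation) and -0.62 to 0.0952 (1D11 minus 13C4). Fabp4 ran from -0.0645 to 0.351 (1D11 minus control) and -0.202 to 0.0788 (1D11 minus 13C4), Retn from -0.103 to 0.0259 (radiation minus control) and -0.125 to 0.089 (1D11 minus control), and Adipoq from -0.341 to 0.317 (1D11_radiation minus control). A fit on only the groups compared gives no value for the interaction or for 6 against 6 tumors. Dim probe sets limit Cidec, Cidea, Lep and Pparg, whose signal over background is unknown. Adipoq too lay under the filter level of 5.37 in control replicate 2 (4.87) and 1D11_radiation replicate 1 (5.21). The limit thus also bears on its fold changes.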
